A study of Mus musculus with 6 samples.

Results

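The HCFC1 peaks of cells depleted of ERRα were set against the HCFC1 peaks of control cells, using every peak of both lists. The assay was ChIP-seq, sequencing of DNA recovered with an HCFC1 antibody, in the wild-type mouse hepatoma line Hepa1-6, which the labels call hepatocytes. The control cells received a pool of scrambled small interfering RNA (siRNA) and the others siRNA against ERRα, each at 100 nM and again after 48 h, a total of 200 nM over 96 h. Each condition has 1 HCFC1 library, in which 2 immunoprecipitations were pooled. The 2 lists held 58028 of the 70638 HCFC1 peaks in the series, 36147 from control cells and 21881 after ERRα knockdown. Another list, of 12610 peaks after HCFC1 knockdown, is used only for values set side by side. With 1 list per condition no difference below has a replicate check, and no test was possible. The intervals given are 95% intervals that cover counting error only, the sequencing depth is unknown, and the extent of the ERRα knockdown is not known from these data.

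HCFC1 is a chromatin coregulator that does not bind DNA itself. It is brought to promoters by partners such as THAP11 and ZFP143 and carries chromatin-modifying enzymes with it, and it is best known for promoters of cell cycle, ribosomal and mitochondrial genes. ERRα, the product of Esrra, is an orphan nuclear receptor and binds the letters TCAAGGTCA and regulates genes of mitochondrial respiration and fuel use. The comparison asks how HCFC1 occupancy looks once ERRα is depleted.

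A control peak was called kept where at least 1 bp of an ERRα-knockdown peak overlapped it and lost where none did, and an ERRα-knockdown peak was called new where it overlapped no control peak. In outline, every peak the authors label as promoter with a control score above 131 was kept, and most paired peaks were wider after ERRα knockdown. Lost and new peaks were narrow, low in score and mostly away from promoters. The promoters below stand for these patterns. Sequences are from the RefSeq table of GRCm38.p6, the build that the deposited coordinates call mm10, and are written 5′ to 3′ on the strand of the gene.

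The first 4 are the strongest kept promoters that hold the THAP11 part of the HCFC1 element, ACTACAATT or its reverse complement AATTGTAGT, which is in capitals. Unk and Nbr1 hold the first form and Aak1 and Erp44 the second.
Unk (chr11:116030077-116030165, plus strand): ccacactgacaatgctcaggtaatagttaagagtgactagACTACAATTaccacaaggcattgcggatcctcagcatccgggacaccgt
Aak1 (chr6:86849187-86849275, plus strand): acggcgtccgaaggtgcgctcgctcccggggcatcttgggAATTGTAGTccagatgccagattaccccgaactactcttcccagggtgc
Erp44 (chr4:48279757-48279839, minus strand): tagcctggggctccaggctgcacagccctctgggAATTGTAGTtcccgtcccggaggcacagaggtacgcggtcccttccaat
Nbr1 (chr11:101552513-101552601, plus strand): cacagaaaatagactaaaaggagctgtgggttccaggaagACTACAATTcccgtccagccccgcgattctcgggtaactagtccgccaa
Scores are the authors' own, on a scale not stated. Score bins and ranks were made within a list. Scores of both lists are also printed side by side, here and below, but whether their scales match is not known. A difference between such scores cannot be read as a gain or loss of HCFC1 signal. At Unk, an RNA-binding protein gene, a control peak of 3007 bp with a score of 8202 lay under a knockdown peak of 4409 bp with a score of 12248. Erp44, an endoplasmic reticulum chaperone gene, had a peak of 2245 bp in control cells and of 3666 bp after knockdown. The peaks at Aak1, a kinase of endocytosis, and Nbr1, an autophagy receptor, were also wider after knockdown.

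Next are kept promoters with the ERR response element in capitals, as TGACCTTGA in the ATP synthase gene Atp5g3 and TCAAGGTCA in Rabepk. They are shown because the depleted receptor is known to bind these letters, and are 2 of the 16 such windows in both lists. Aptx, also among those, had scores of 360 in control cells and 303 after knockdown. It was the only gene among them with the lower score after knockdown.
Atp5g3 (chr2:73911330-73911418, minus strand): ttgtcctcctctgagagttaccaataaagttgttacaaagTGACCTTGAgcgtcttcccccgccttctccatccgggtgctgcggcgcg
Rabepk (chr2:34799993-34800041, minus strand): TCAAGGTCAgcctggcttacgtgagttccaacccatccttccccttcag
The control peak over Atp5g3 had a score of 144 and a width of 1283 bp, and its counterpart after ERRα knockdown had a score of 736 and a width of 1993 bp. At Rabepk the scores were 493 and 1292. Peaks over both promoters were present with and without ERRα siRNA.

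The last 7 are the 100 bases before the RefSeq gene start. Fuom, Sh3tc1 and Arhgef39 have the highest-scoring lost peaks, and Cfap126, Trappc12 and Hmx2 the highest-scoring new peaks, among protein-coding genes in the RefSeq table whose peak lay within 20 kb and covered the whole stretch, whatever its place label. Mmachc is the promoter pair that gained the most width. Capitals mark CG dinucleotides, which differ in number between the classes.
Fuom (chr7:140102407-140102506, minus strand): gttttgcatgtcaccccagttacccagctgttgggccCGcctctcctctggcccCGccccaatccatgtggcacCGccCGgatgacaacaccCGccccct
Sh3tc1 (chr5:35729277-35729376, minus strand): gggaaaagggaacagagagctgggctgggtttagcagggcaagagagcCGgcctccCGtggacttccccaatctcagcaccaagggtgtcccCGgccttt
Arhgef39 (chr4:43508748-43508847, minus strand): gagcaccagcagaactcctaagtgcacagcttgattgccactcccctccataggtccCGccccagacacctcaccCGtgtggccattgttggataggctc
Cfap126 (chr1:171113886-171113985, plus strand): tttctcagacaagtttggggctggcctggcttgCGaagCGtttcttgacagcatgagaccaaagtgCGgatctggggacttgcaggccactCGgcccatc
Trappc12 (chr12:28750401-28750500, minus strand): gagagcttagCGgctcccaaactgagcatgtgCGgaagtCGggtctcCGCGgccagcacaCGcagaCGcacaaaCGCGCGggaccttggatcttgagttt
Hmx2 (chr7:131554193-131554292, plus strand): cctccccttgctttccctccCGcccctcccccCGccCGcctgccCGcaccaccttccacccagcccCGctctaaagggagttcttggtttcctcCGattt
Mmachc (chr4:116708386-116708485, minus strand): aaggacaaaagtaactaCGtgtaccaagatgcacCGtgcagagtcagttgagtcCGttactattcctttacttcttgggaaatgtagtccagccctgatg
The stretches of Fuom, Sh3tc1 and Arhgef39 hold 5, 3 and 2 CG dinucleotides. Those of Cfap126, Trappc12 and Hmx2 hold 4, 10 and 6. Mmachc holds 3.

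The lists differed in range before they differed in any gene. The ERRα-knockdown list held no peak farther than 19993 bp from a transcription start, and the HCFC1-knockdown list none beyond 19994 bp, whereas 10630 of the control peaks (29.4%) lay beyond 20 kb and the farthest at 1710904 bp. The step was sharp. Between 15 and 20 kb the control list had 1759 peaks and the ERRα-knockdown list 961, and between 20 and 25 kb they had 1412 and 0. Why the knockdown lists end at 20 kb is not stated, so kept shares are given within that distance too.

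**Figure D1:**
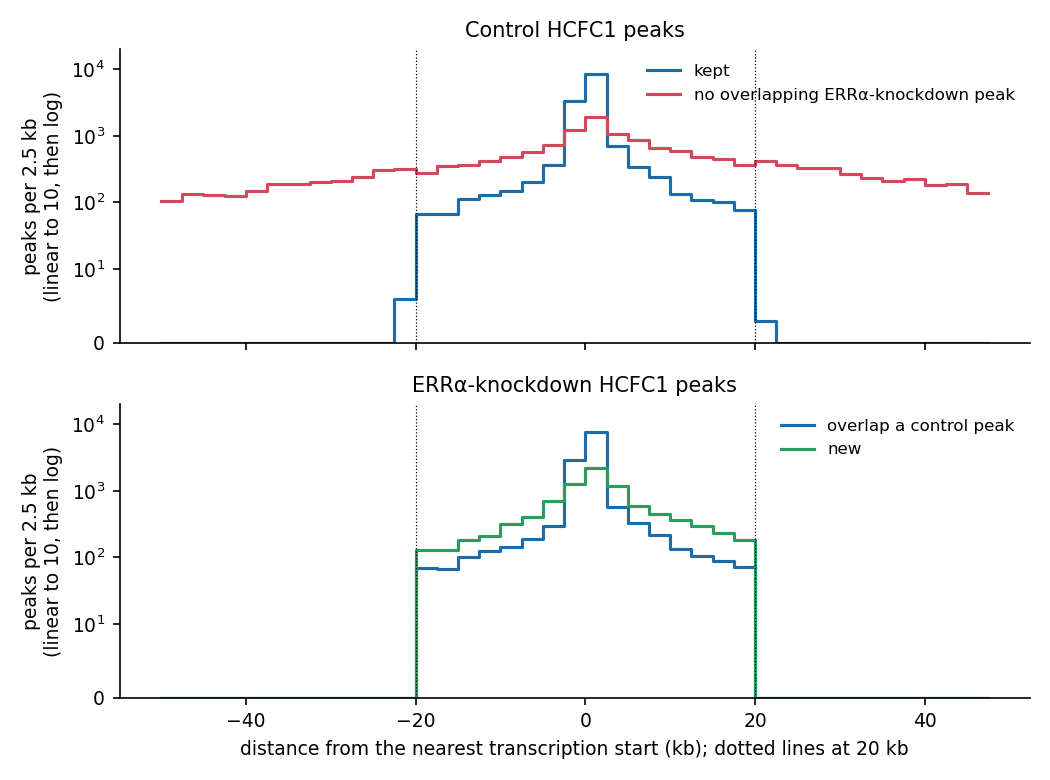
Peaks per 2.5 kb by distance of the deposited peak from the nearest transcription start, for control peaks (top) and ERRα-knockdown peaks (bottom); the y axis is linear to 10 and logarithmic above. The ERRα-knockdown list ends at 20 kb on both sides and the control list does not.

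Of all control peaks, 14673 (40.6%) were kept and 21474 were lost, a background of 59.4% lost. Almost as many of the lost peaks lay outside the range of the knockdown list as within it, 10631 of them (49.5%) being beyond 20 kb or without a distance. Of the 25507 control peaks within 20 kb, 14664 were kept, which is 57.5% (56.9 to 58.1), and 42.5% were lost. Beyond 20 kb or without a distance, 9 of 10640 were kept. In the other direction 8857 of the ERRα-knockdown peaks were new, a background of 40.5% (39.8 to 41.1), and 13024 overlapped a control peak. Beside these, the HCFC1-knockdown list overlapped 8044 (31.5%) of the control peaks within 20 kb, and 4297 (34.1%) of its own peaks were new. Both knockdown lists are set against the same control list. The kept share of all control peaks was 25.2% under a reciprocal overlap of 50% and 22.1% with centres within 200 bp. With a score of at least 50 required in both lists, 74.7% of the 11729 control peaks left were kept. The kept share depends on how overlap is defined and on which peaks enter. The new share was 63.5% by centres and 18% among the higher-scoring 50% of each list.

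The kept share was highest in 5′ UTRs and at promoters and lowest between genes. Within 20 kb, 5103 of 5787 control peaks annotated to a promoter were kept, 88.2% (87.3 to 89), and 1003 of 1105 in a 5′ UTR, 90.8%. The promoter share was 63.9% with a reciprocal overlap of 50% and 49.6% with centres within 200 bp. In exons the share was 71.6% of 3028, in introns 45.3% of 9498, in 3′ UTRs 37% of 343 and between genes 28.3% of 4715. New peaks made up 15% of the 5375 ERRα-knockdown peaks at promoters, 49.4% of the 7651 in introns, 65% of the 3167 between genes and 69.8% of the 321 in 3′ UTRs. Distance gave the same picture: 88.6% of control peaks within 1000 bp of a start were kept, 44% between 1000 and 5000 bp, 26.5% between 5000 and 10000 bp and 19.5% between 10000 and 20000 bp.

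Among control peaks in introns and between genes, those in CpG islands stood apart from those in repeats. Of 1959 island peaks within 20 kb, 1849 were kept, 94.4% (93.3 to 95.4), a higher share than at promoters. Peaks in short interspersed elements were kept in 21.4% of 1185 cases, in long terminal repeats in 18.4% of 1070 and in long interspersed elements in 15.2% of 394. Of peaks with neither repeat nor island, 34.2% of 9039 were kept. Simple repeats were near that, with 35.8% of 366, and satellites had 27% of 37. After ERRα knockdown 13.6% of the island peaks in introns and between genes were new. The share was 74.1% in short interspersed elements, 77.5% in long interspersed elements and 56% in simple repeats.

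The kept share was higher in each higher bin of score, and at promoters than elsewhere in the lower bins. Control peaks within 20 kb were put in 10 equal bins by score. In bin 1 (13 to 19), 48.8% (41.8 to 55.8) of promoter peaks and 22.6% (20.9 to 24.4) of others were kept. In bin 7 (50 to 69) the shares were 91.9% and 63.6%. In bin 10 (266 to 30879) all 1467 promoter peaks were kept, as were 1083 of the 1084 others. New peaks were the low end of their list. They made up 81.2% of bin 1 of ERRα-knockdown scores (13 to 23), 34.5% of bin 6 (59 to 85) and 0 of 2188 in bin 10 (630 to 42521), which allows up to 0.168%.

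**Figure D2:**
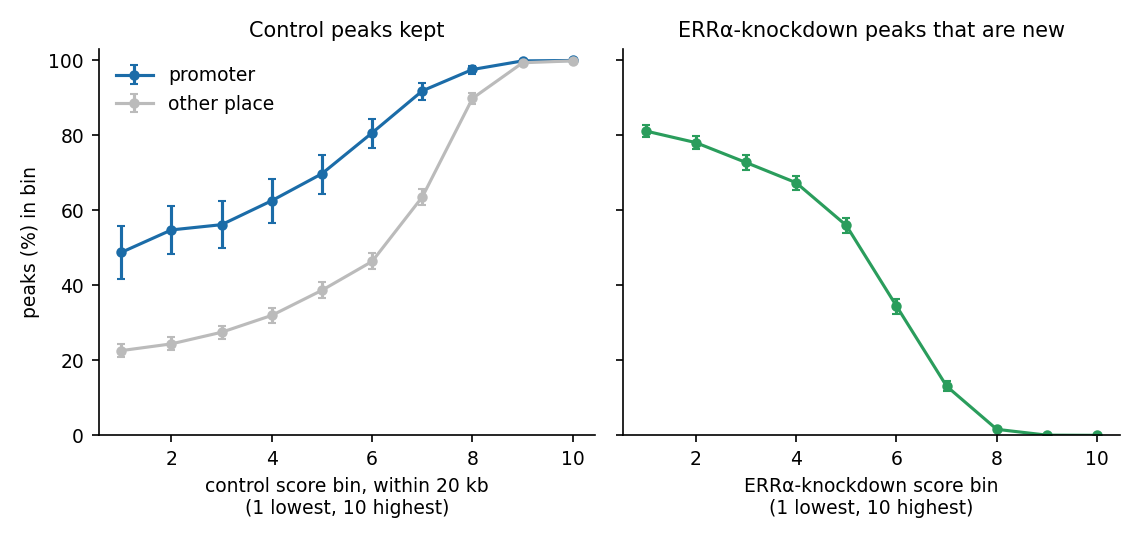
Left, the percent of control peaks within 20 kb that were kept, by bin of control score, at promoters and elsewhere; right, the percent of ERRα-knockdown peaks that were new, by bin of their own score. Bars are exact 95% binomial intervals for counting error; promoter peaks run from 48.8% to 100% kept, and new peaks from 81.2% to 0%.

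Kept, lost and new peaks also differed in size. Kept control peaks within 20 kb had a median width of 799 bp and a median score of 70. Lost ones had 313 bp and 28. New peaks had a median of 405 bp and 34 in their own list, where peaks overlapping a control peak had 1124.5 bp and 142. A lost peak within 20 kb lay a median of 9322 bp from the nearest kept control peak, and 17.4% lay within 2 kb of one. A new peak lay a median of 2868 bp from the nearest control peak, 36.1% within 2 kb. In bases, the lists shared 12.6 Mb. The parts of overlapping knockdown peaks that reached outside control peaks came to 5.87 Mb, more than the 4.37 Mb of the new peaks, and lost control peaks within 20 kb came to 3.96 Mb.

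The kept share differed between chromosomes. On chromosomes 9, 12, 14, 16 and X it ran from 69.7% to 80.3%, and over them 1878 of 2526 control peaks within 20 kb were kept, 74.3% (72.6 to 76). On the other 15 autosomes it ran from 45.8% on chromosome 1 to 62.9% on chromosome 13, with 55.6% (55 to 56.3) over them. The first 5 held few control peaks, 238 to 825 each, against 699 to 2374. Their control peaks had higher median scores, 47 to 54 against 36 to 45. The ERRα-knockdown list had 93.2 to 116 peaks per 100 control peaks within 20 kb there and 67.7 to 94.2 elsewhere. Promoter peaks overlapped more in range, 88.8% to 94% kept on the first set and 82.6% to 92.9% on the others. The grouping was made after these values were seen, and the part of score or of DNA copy number in it was not tested.

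Most peaks that could be paired were wider after ERRα knockdown. In 11185 pairs a control peak and an ERRα-knockdown peak overlapped only each other. The median width was 837 bp in control cells and 1046 bp after knockdown, and the median ratio within a pair was 1.22 (1.21 to 1.23). The knockdown peak was the wider one in 8012 pairs, 71.6%, and it was at least 1.5 times as wide in 3455, a background of 30.9%. The control peak was at least 1.5 times the wider in 708 pairs (6.33%). The median ratio was alike across places, 1.22 at promoters, 1.21 in introns and 1.21 between genes. In the HCFC1-knockdown list, set against the same control peaks, the median ratio was 0.647 over 7214 pairs, and 18.8% were wider.

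The ratio was largest at both ends of the control scores. With the pairs in 10 equal bins by control score, in bin 1 (13 to 25) the median width was 353 bp in control cells and 573 bp after knockdown, a median ratio of 1.48 (1.42 to 1.56). In bin 7 (104 to 147) the ratio was 1.12 (1.09 to 1.13). In bin 10 (479 to 30879) it was 1.33 (1.3 to 1.36), with a median gain of 549 bp, and 89.2% were wider. In pairs whose peaks were both at least 500 bp wide the ratio over all scores was 1.17.

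**Figure D3:**
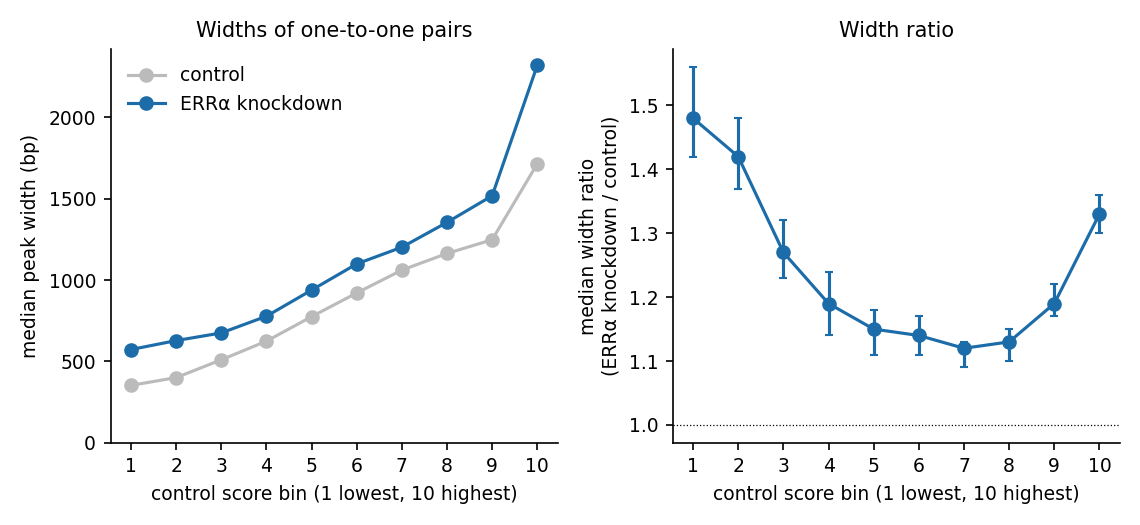
Left, median width of control peaks and of the ERRα-knockdown peaks paired with them, by bin of control score; right, the median ratio of the widths within pairs, with exact 95% intervals over pairs and a dotted line at equal width. The ratio is 1.48 in bin 1, 1.12 in bin 7 and 1.33 in bin 10.

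The largest width gains were at strong promoters. Mmachc, which encodes a cobalamin trafficking protein, had a control peak of 3300 bp (chr4:116706814-116710113) and a knockdown peak of 7484 bp (chr4:116703581-116711064). Its score stood at the 99.7 percentile of promoter pairs in control cells and at 99.6 after knockdown. Dync1i2, a dynein subunit gene, went from 1802 to 5686 bp, and Gsk3a, a glycogen synthase kinase gene, from 5988 to 9815 bp. Ranbp10, a Ran-binding protein gene, went from 2846 to 6505 bp and Clpb, a mitochondrial disaggregase gene, from 2824 to 6058 bp. Mrps22, a mitochondrial ribosomal protein gene, had the largest ratio of the 10 largest gains, 4.18, from 930 to 3889 bp. Hirip3, Gm5113, Zfp46 and Aplf completed the 10, with gains of 2904 to 3109 bp. None of the 10 moved by more than 2.1 percentile points in rank. All were in the top of 5 bins of promoter pairs by control score, where the quartiles of the move were -1.82 and 1 points.

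The largest losses of width were at weaker peaks. Pold2, a DNA polymerase delta subunit gene, had 1932 bp in control cells and 840 bp after knockdown, with scores of 122 and 119. The peak of Elf3, an ETS factor of epithelia, went from 1308 to 290 bp. C530005A16Rik went from 1975 to 902 bp, Adarb1, an RNA-editing enzyme gene, from 1572 to 511 bp and Tinagl1 from 1365 to 346 bp.

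Some single knockdown peaks spanned several control peaks. Of the 13024 ERRα-knockdown peaks that overlapped a control peak, 11516 lay over 1 and 1508 over at least 2, covering 3352 control peaks. In the other direction, 196 of the 14673 kept control peaks lay over 2 or more knockdown peaks. The median width of the joining peaks was 2454.5 bp. The peak over the most control peaks, 8, was assigned to Dlg4 (chr11:70011986-70023122, 11137 bp). It also covers the promoter of Acadvl, the very long chain acyl-CoA dehydrogenase of fatty acid oxidation. The control peaks under it had scores from 15 to 794 and covered 6682 bp. Next was a peak of 11694 bp at Thap11, the gene of HCFC1's DNA-binding partner, over 7 control peaks that covered 9216 bp. Peaks at Gm15417 and Myl6, a myosin light chain gene, each spanned 6 control peaks, and one at Ifrd2 spanned 5.

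At promoter pairs the extension looked larger downstream of the start than upstream, but not under another definition of a promoter. Over the 3240 of 3993 promoter pairs whose assigned gene had a strand in the RefSeq table, the median extension was 63 bp upstream and 136 bp downstream, with a median difference within pairs of -80.5 bp (-93 to -62). With promoters taken as peaks within 1000 bp of a start on either side, the difference was -7 bp, with an interval of -17 to 2 bp. In the highest of 5 score bins the extensions were 225 and 217 bp, with a median difference of 0.

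Most promoter peaks held similar ranks in both lists. Over the 3993 promoter pairs, ranked by score within each list, Spearman's rho between the ranks was 0.9, as a description over sites that share their libraries. A move of 25 percentile points or more was made by 257 pairs, a background of 6.44%, of which 132 ranked higher after ERRα knockdown and 125 lower. With the pairs in 5 equal bins by control score, none of the 799 in the top bin moved that far. Of the 400 pairs with the highest scores in control cells, 361 (90.2%) were among the 400 highest after knockdown. With every overlapped control promoter peak counted, joined ones too, the share that moved was 10.4%.

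The 10 largest falls in rank among pairs above the median score in at least 1 list began with Tmx2. Tmx2, a thioredoxin-related membrane protein gene, had scores of 149 in control cells and 53 after knockdown and went from the 55.6 to the 9.16 percentile (chr2:84677641-84678777 in control cells). Decr1 encodes the 2,4-dienoyl-CoA reductase of unsaturated fatty acid oxidation in mitochondria. Its control peak (chr4:15945053-15945583) had a score of 157 at the 57.3 percentile and its knockdown peak 59 at the 11.2 percentile, and the peak was narrower, 424 against 531 bp. Ggcx, the vitamin K-dependent carboxylase that liver uses for clotting factors, went from the 50.3 to the 9.77 percentile. Pkp1, a desmosome protein gene, Lin7a, a polarity scaffold gene, Lancl1, Samd4b, Slc12a9, Cbwd1 and Zbtb48, a telomere-binding factor gene, completed the 10. Their ranks were 39 to 44.9 points lower after knockdown.

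The 10 largest rises were of 43.9 to 51.9 points. Tfb1m, which encodes the methyltransferase of mitochondrial ribosomal RNA, had a control score of 23 at the 3.39 percentile and a knockdown score of 275 at the 55.2 percentile (chr17:3557275-3557958 in control cells). Pank2, a pantothenate kinase gene of coenzyme A synthesis, had a control score of 13, the lowest in the list, and a knockdown score of 249, while its peak was narrower, 782 against 1251 bp. Rabgap1, a Rab GTPase-activating protein gene, went from the 7.85 to the 59.8 percentile. Hmg20b, a subunit gene of a histone demethylase complex, went from the 4.46 to the 54.1 percentile. Rasef, Slk, a kinase gene, Zfp386, Flicr, Bmpr1a, a BMP receptor gene, and Asap1 ranked 43.9 to 49 points higher.

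**Figure D4:**
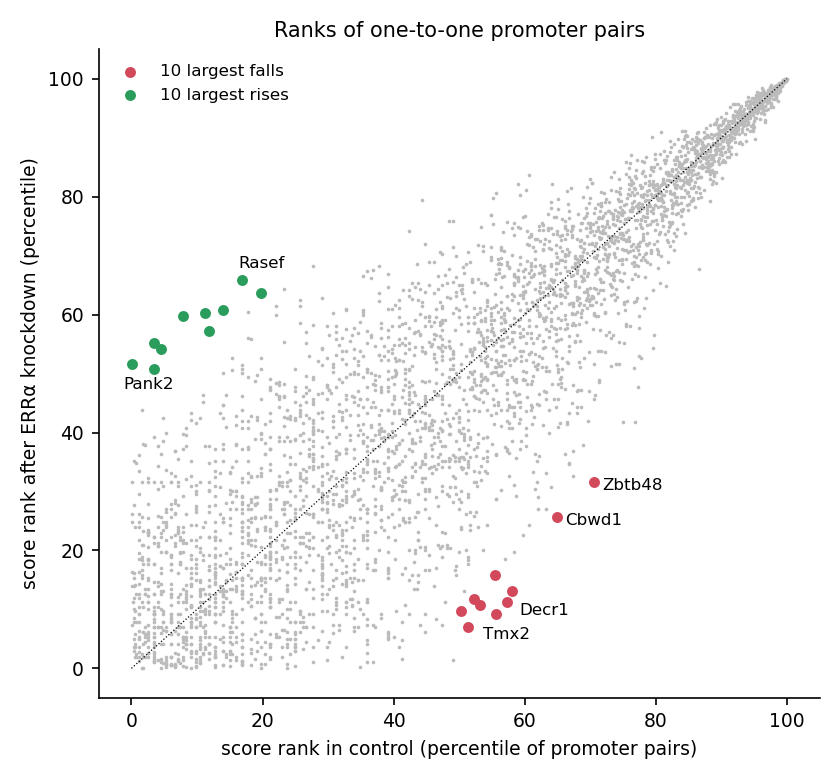
Score rank of each of the 3993 promoter pairs in control cells and after ERRα knockdown, as percentiles of the same pairs, with the 10 largest falls and rises among pairs above the median in at least 1 list. Points narrow onto the dotted line of equal rank towards the top right, where 361 of the 400 highest control pairs are also among the 400 highest after knockdown.

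The lost peaks with the highest scores all lay beyond 20 kb or on an unplaced contig, outside the range of the knockdown list. They included a satellite peak nearest to Lrrc4c with a score of 3667 and a CpG island peak 64928 bp from Zfp958 with 3518. Within 20 kb the highest was a satellite peak near Mir101c with 1147 (chr9:3023449-3023679), a width of 231 bp. The next, near Rn4.5s, had 160 and lay in a long terminal repeat. By place label, the strongest lost promoter peak was that of Fam135b with 131 (chr15:71727323-71728463). Tm7sf2, a sterol reductase gene of cholesterol synthesis, followed with 106 (chr19:6067928-6068464). Gm5106 and Sh3tc1 had 100 each, Arhgef39 95, Npas1, a transcription factor gene, 94, Borcs8, of lysosome positioning, 92, and Adsl, of purine synthesis, 91. Zfp51 with 86 and Lipo2 with 84 completed the 10. No peak with the promoter label and a control score above 131 was lost.

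The strongest new peaks were at genes of unlike function. The highest score of a new peak was 262, assigned to Cfap126, a cilium protein gene (chr1:171113675-171114416). Kcng1, a potassium channel gene, followed with 218, and the homeobox and paired-box genes Lbx1, Pax2 and Hmx2 had 210, 208 and 190. Of these, Kcng1, Lbx1 and Pax2 had their new peak in a CpG island. Tns3, a tensin gene, had 189, Zranb3 187 and Efcc1 184. By place label, the strongest new promoter peaks were those of Trappc12 with 198, a vesicle tethering factor gene (chr12:28750069-28750738), and Csgalnact2 with 180, of chondroitin sulfate synthesis. Ovol2, an epithelial transcription factor gene, had 152, Gm13290 and Rnf32 151, and Gata2, a blood and endothelial transcription factor gene, 148. Gnpnat1, of hexosamine synthesis, Arid1a, a SWI/SNF subunit gene, and Pnrc2, a nuclear receptor coactivator gene, had 141 each, and Uvssa, of transcription-coupled repair, 135. These scores belong to the knockdown list and cannot be read against the lost peaks' scores.

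The genes of the proteins involved kept their own peaks. Hcfc1 had control peaks with scores of 76 and 1924, and 1 ERRα-knockdown peak of 3795 bp with a score of 2760 covered both. Esrra had control peaks with scores of 34 and 125 under 1 knockdown peak of 2616 bp with a score of 96 (chr19:6919909-6922524). Esrrg, a related receptor gene, had no control peak and a new intronic peak with a score of 43, 407 bp from its start. No peak was assigned to Esrrb.

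The place label appears to follow the middle of a peak, so promoters were also counted by RefSeq windows of 250 bp before to 50 bp after each start. Of 27025 genes with a window, 9114 (33.7%) had one under a control peak and 9762 after ERRα knockdown, with 8405 in both. Of 8974 genes occupied in control cells by a peak within 20 kb, 570 were not occupied after knockdown, a background of 6.35%. Of the genes occupied after knockdown, 1357 had no control peak over a window, a background of 13.9%. For 772 of them the peak was new, and for 585 it overlapped a control peak that did not itself reach a window of the gene. Examples of the latter are Prr22, under a peak with a score of 17809, and S1pr4, a sphingosine phosphate receptor gene, under one with 15521. A further 139 genes seemed to lose a peak that the authors place beyond 20 kb of a start, among them the kinase genes Pik3ca with a control score of 469 and Eif2ak1 with 302. Of the occupied control genes, 2860 (31.4%) share their peak with the window of another gene.

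Over all genes with a control peak on a window, 92.2% were in both lists, and their median control score was 130. All 64 genes of oxidative phosphorylation with a window, of 76 listed, were occupied in both lists. So were all 68 with a window of the mitochondrial ribosome, of 77 listed, and all 25 of the proteasome, of 31. The cytosolic ribosome, with 76 listed, had 55 of 56 with a window in both, and the other in neither. These lists had median control scores of 282, 452.5, 421 and 347, above that of all genes. Over all control peaks within 20 kb, those of higher score were kept more often. The part of score in the counts of these lists was not tested. Ndufb5, a complex I subunit gene, had a control score of 5915 and a knockdown score of 8601 under peaks of 2045 and 4212 bp, shared with Mrpl47 of the mitochondrial ribosome. Uqcr10, of complex III, had 3197 and 5717. The occupied peak was wider after knockdown at 50 of 64 oxidative phosphorylation genes, 58 of 68 mitochondrial ribosome genes and 44 of 55 cytosolic ribosome genes. Over all genes the peak was wider at 6391 of 8382 (76.2%). Median width ratios were 1.27, 1.4 and 1.53, beside 1.26 over all genes.

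Fuel metabolism showed single gains and losses, counted over genes with a window. Over all genes with a window, 31.1% were in both lists, 2.62% in control only and 5.02% after knockdown only. Of 20 genes of pyruvate dehydrogenase and the TCA cycle, 18 were in both lists. Pdha1, the pyruvate dehydrogenase subunit, had a new peak with a score of 42, and Suclg2, a succinyl-CoA synthetase subunit, was reached by an overlapping peak with 100. Of 19 fatty acid oxidation genes 16 were in both. Slc25a20, the carnitine-acylcarnitine carrier, had a control peak with a score of 18 and none after knockdown. Acadm, the medium chain acyl-CoA dehydrogenase and a known ERRα target, was reached only after knockdown, by a peak with 128. That peak overlaps a control peak outside the window. Glycolysis had 14 of 21 in both, which are all 14 of its genes occupied in control cells, and 5 in neither. New peaks lay at Pfkp (30) and Hk2 (26), genes of phosphofructokinase and hexokinase. Cholesterol and fatty acid synthesis had 17 of 24 in both and 3 in neither. Tm7sf2 and the thiolase gene Acat2, with control scores of 106 and 61, were occupied in control cells only, and Lss and Pmvk, of sterol synthesis, after knockdown only, with 60 and 37.

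Genes around ERRα and HCFC1 that were occupied in control cells were all in both lists. That share was also 100% in the cell cycle and aminoacyl-tRNA synthetase lists and 85% in the stress response list. It was 92.2% over all genes. The counts below are over genes with a window. Over all genes with a window 31.1% were in both lists, 2.62% in control only and 5.02% after knockdown only. Of 25 ERR receptors, coregulators and known targets, 17 were in both lists, 2 (Acadm and Esrrg) after knockdown only and 6 in neither. Pprc1, a coactivator of the PGC-1 family, had scores of 7100 and 11108, and Mfn2, of mitochondrial fusion, 3762 and 5762. All 28 occupied HCFC1 partner genes of 30 were in both, with Thap11 at 3631 and 7084 and Asxl1, a Polycomb-related factor gene, at 2491 and 5467. Of 37 DNA replication and cell cycle genes 33 were in both, and Rrm2, Ccnb1 and Pola1 after knockdown only, with scores of 64, 43 and 18. The Rrm2 peak overlaps a control peak outside the window, and those of Ccnb1 and Pola1 were new. In the amino acid and stress response list 17 of 24 were in both. Aldh18a1 and Pycr1, of proline synthesis, were in control only with 34 and 32, as was Eif2ak1 with 302. The Eif2ak1 peak lay beyond 20 kb, outside the range of the knockdown list. Trib3, a stress-induced pseudokinase gene, was reached after knockdown only, by a peak with 71 that overlaps a control peak elsewhere. Aminoacyl-tRNA synthetases had 25 of 27 in both, and Sars in the knockdown list only, under a peak that overlaps a control peak outside the window. Rank moves of 25 points or more were made by 4 of the 136 listed genes with a promoter pair (2.94%), beside 6.44% of all pairs. Mrpl10, of the mitochondrial ribosome, ranked 25.3 points higher. Pgk1, of glycolysis, ranked 28.6 points lower, with scores of 83 and 48, and Rbl1, a retinoblastoma-like protein gene, and Cars2 ranked 25 points lower.

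Markers of hepatocytes had no window under a peak about as often as all genes, 16 of 26 (61.5%) against 16554 of 27025 (61.3%). Of the 26, 8 were in both lists, among them Foxa3, a liver transcription factor gene whose window lay under a control peak with a score of 7530. Apob and Onecut1 were occupied after knockdown only, with scores of 29 and 33. Over all genes with a window, 31.1% were in both lists and 5.02% after knockdown only. Of 11 neuron genes 2 were in both, and Map2 and Gad1 in the knockdown list only. The knockdown peaks at Onecut1 and Map2 overlap a control peak outside the window, and those at Apob and Gad1 were new. The endothelial, stellate and biliary list had 2 of 8 in both. No immune gene of 9 and no muscle gene of 8 was in either. Peaks do not measure expression, so these counts cannot check the labelled cell type.

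**Figure D5:**
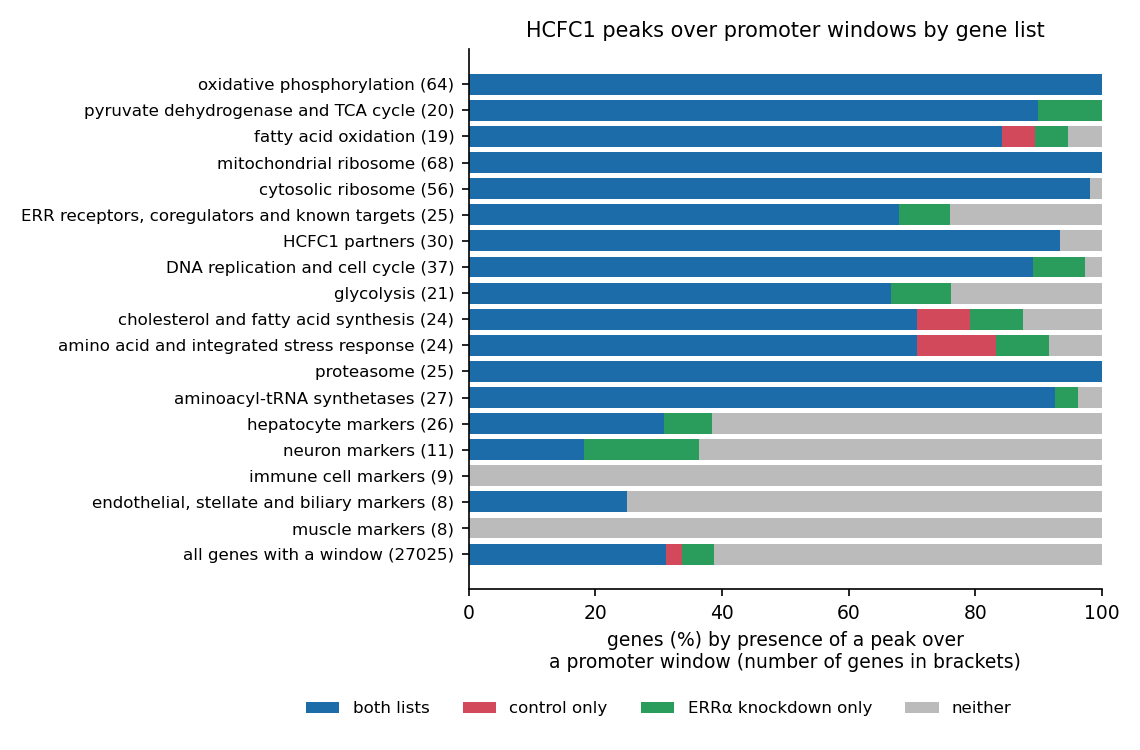
Percent of the genes with a RefSeq promoter window, in each list and over all genes, whose window lay under a peak in both lists, in control only, after ERRα knockdown only or in neither. List members without a window are left out. Oxidative phosphorylation (64 genes), the mitochondrial ribosome (68) and the proteasome (25) are in both lists throughout, and immune and muscle markers in neither.

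Promoter letters differed between the classes. Each motif was searched on both strands of the 300 bp windows, and a match is only a match of letters. Lost windows here and below include those whose control peak lay beyond 20 kb, outside the range of the knockdown list. Of the 595 genes whose window lost its peak, 139 were of that kind. The THAP11 letters were in 5.76% (4.38 to 7.41) of the 973 windows in both lists with the highest control scores (1162.5 or more). Over all 9726 windows in both lists they were in 0.936%, over all 32851 windows in 0.393%, in 0 of 723 lost windows, which allows up to 0.509%, and in 1 of 900 new ones. The ZFP143 core CCCANNATG was in 12.4% of those 973, 5.41% of windows in both lists and 5.01% of all. The ETS letters CCGGAAG, bound by GABPA, were in 22.1% of windows in both lists, 7.33% of lost, 8.78% of new and 8.86% of all. YY1 letters (AAGATGGCG) were in 3.85%, 0.415%, 1.11% and 1.4% of these, and NRF1 letters (GCGCATGCG) in 4.54%, 1.8%, 2% and 1.75%.

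The ERR response element was in 0.423% of all windows. It was in 16 of 9726 windows in both lists, 0.165% (0.0941 to 0.267). None of the 723 lost windows held it, which allows up to 0.509%. The Ccl27a window held it under a control peak with a score of 45. That window was occupied in control only, as the knockdown peak overlapping its control peak did not reach it. Of 900 new windows 2 held it, those of Syt2 and 1700127F24Rik. It was in 4 of 730 reached only by knockdown peaks that overlap a control peak elsewhere, 0.548% (0.149 to 1.4). Windows in neither list held it in 116 of 20602 cases, 0.563% (0.465 to 0.675). Sdhd and Timm8b, neighbours that share a peak with scores of 306 and 578, and Atp5g3 are mitochondrial genes among the 16. The shorter nuclear receptor site AAGGTCA, which is contained in the full element, was in 2.54% of windows in both lists, 4.29% of lost, 3.56% of new and 4.72% of all.

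The SP1 and KLF box GGGCGGG was in 52.3% of windows in both lists, 50.4% of the 730, 44.9% of new, 29% of lost and 25.6% of all windows, and in 35.7% of the 973. In the same order, the E-box CACGTG was in 11.4%, 10%, 9%, 6.78% and 7.15% of windows, E2F letters (TTCCCGC) in 9.85%, 6.16%, 7.89%, 4.98% and 4.6% and the CREB letters TGACGTCA in 3.66%, 1.37%, 2.22%, 1.52% and 1.79%. CCAAT, the NFY box, was in 33.7% of the 973, 36.6% of windows in both lists, 41.2% of the 730, 35.1% of new, 35.8% of lost and 37.4% of all. The median number of CG dinucleotides per window was 24 in both lists, 18 in new, 16 in windows reached only by knockdown peaks that overlap a control peak elsewhere, 8 in lost and 4 in windows in neither. The part of base composition in the motif shares was not tested.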

How the data were processed

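HCFC1 ChIP-seq peaks of Hepa1-6 cells were taken as the authors deposited them, 1 annotated list per siRNA condition. Per the submitters' processing notes the tools were MACS2 2.1.1.20160309, BWA 0.7.12, HOMER 4.11.1 and Picard 2.0.1 and the build mm10, with no role given. Scores are as the authors deposited them, on a scale not stated. A note with the lists says that 2 immunoprecipitations were pooled per library. IgG libraries were not analysed here.

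Overlap was counted from 1 bp, and widths include both end positions. Shares carry exact Clopper-Pearson 95% intervals and medians exact order-statistic intervals, both limited to counting error. No test could be run on single libraries. Promoter windows, gene strands and sequences are from RefSeq tables of GRCm38.p6, with no windows on 1 chromosome. List members without a window, whatever the reason, were not counted. Python 3.11.15, pandas 2.3.3, numpy 2.4.6 and scipy 1.17.1 were used, and the overlap and pairing code was tested on simulated data.

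The comparison, gene lists and motifs were chosen with earlier results of these data known. The genes named are those assigned to Hcfc1, Esrra, Esrrb or Esrrg, the 10 strongest lost and new peaks of any place and of promoters, the 10 largest rank rises and falls among promoter pairs above the median score in at least 1 list, the 10 largest gains and 5 largest losses of width, the 5 peaks over the most control peaks, and in each gene list the 2 strongest members and up to 4 that changed. The lost peaks within 20 kb, the window examples, the ERR element genes and the printed promoters were chosen after the values were seen, and the text gives a part of those named.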

Additional observations from a re-analysis of the deposited data

How the results depend on the processing

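No paired analysis was possible because each condition has 1 library. The kept and new shares depend on how overlap is defined and on which peaks enter, and cross 50% under some alternatives. The kept share of all control peaks, 40.6%, was 25.2% with a reciprocal overlap of 50%, 22.1% with centres within 200 bp, 54.4% in the higher-scoring 50% of each list, 55.8% with lists of equal length, 74.7% with a score of at least 50 and 39.5% with peaks merged within 500 bp. For promoters, 88.2%, the first 5 of these gave 63.9%, 49.6%, 89.1%, 93.5% and 95.6%. The new share, 40.5%, was 58.3%, 63.5%, 18%, 48.6%, 32.1% and, with merging, 37.9%. Added after seeing the data, limiting control peaks to 20 kb gave 57.5% kept, and 52.1% with knockdown peaks also narrowed around their centres by the ratio of the lists' median widths, 0.554, which gave 84.1% at promoters. The width ratio, 1.22, was 1.39 when each overlapped control peak took its strongest partner, 1.17 with reciprocal overlap and 1.17 where both peaks had at least 500 bp (added). The percent wider, 71.6, was 77.2 with strongest partners, 74.9 in the higher-scoring 50%, 69.9 with reciprocal overlap and 73.7 at promoters. The extension difference, -80.5 bp, was -104 bp with strongest partners and -7 bp (-17 to 2) by distance to a start. The percent of ranks moved, 6.44, was 10.4 with strongest partners and 5.49 with reciprocal overlap. Beyond what each alternative does by construction, the cause was not tested. Depth is unknown, so what it adds to any of these differences cannot be told apart from the siRNA.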
